A study of Mus musculus with 6 samples.

Results

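Matrix metalloproteinases (MMPs), ADAMs, ADAMTS enzymes, ADAMTS-like (ADAMTSL) proteins and the tissue inhibitors of metalloproteinases (TIMPs) were examined as 1 group in the liver of mice lacking Lmln. They were taken from a table of gene counts by the form of their symbols, and a gene was kept where its counts summed to at least 10 over the 6 libraries. Of 55367 gene names, 84 had such a symbol and 56 reached the minimum: 17 MMPs, 15 ADAMs, 16 ADAMTS enzymes, 5 ADAMTS-like genes and 3 TIMPs. The other 28 included 15 without a count. The largest sum below the minimum was 8, in Adam32, and the smallest above it was 12, in Mmp7. Together the 56 genes held 0.0609% of all counts.

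RNA sequencing of whole liver compared Lmln-/- mice (here Lmln-KO) with wild-type (WT) mice, both of the C57BL/6J strain, with 3 libraries per genotype. The 3 WT libraries and Lmln-KO replicates 1 and 2 are labelled with an age of 46 weeks. Lmln-KO replicate 3 is labelled with 39 weeks. Neither the sex of the animals nor how the Lmln allele was made is given in the labels. Replicates are numbered without a statement that each came from its own animal, and p-values measure the spread between these libraries.

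MMPs, ADAMs and ADAMTS enzymes are metzincins, proteases that hold a catalytic zinc ion between histidines of a conserved signature. MMPs cut collagens and other matrix proteins, ADAMs release the outer parts of membrane proteins such as cytokine precursors and receptors, and ADAMTS enzymes act on proteoglycans, procollagens, fibrillin and von Willebrand factor. ADAMTS-like proteins share the non-catalytic modules of ADAMTS enzymes but have no protease domain. TIMPs bind the active enzymes and block them. In liver, stellate cells, macrophages and endothelium are known sources of these proteins, and the balance between proteases and TIMPs shapes the matrix in fibrosis. The protein missing from the Lmln-KO animals, invadolysin, is itself a metzincin of another family.

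Total counts per library were between 17388360 and 22494696, and each Lmln-KO library was deeper than each WT library. Counts of Lmln itself (on chromosome 16, from 33062521 to 33127695 in GRCm38) were 4, 12 and 2 in the Lmln-KO libraries and 79, 80 and 39 in the WT libraries. Its difference was -3.72 on the log2 scale (SE 0.582), at an adjusted p of 0.933 by quasi-likelihood in edgeR and of 5.35e-06 in DESeq2. Sex-chromosome transcripts divided the libraries across genotype. Xist, the RNA that silences an X chromosome, lay between 1878 and 1947 CPM (counts scaled to a common library size) in Lmln-KO replicate 3 and WT replicates 2 and 3. In the other 3 libraries, Lmln-KO replicates 1 and 2 with replicate 1 of WT, it was below 1 CPM, and 4 Y-linked genes summed to between 216 and 235 CPM. The genotypes were therefore unequally mixed for sex-chromosome transcripts. Pooled differences are given first, and those within each of these sets are given further below. The labelled tissue was checked with hepatocyte markers. They summed to between 65650 and 80530 CPM in Lmln-KO and between 81300 and 99250 CPM in WT, so every Lmln-KO library lay below every WT library. Of 9 tested markers 7 had a negative fitted value, and their part in the results below was not tested.

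The sequences that encode the zinc-binding signature show which of the 56 genes carry the codons of a metzincin active site. The signature spans 11 codons, 33 bases, and was searched in the coding transcripts of GENCODE mouse release M21 (GRCm38). It was found in 17 of 17 MMPs, 10 of 15 ADAMs and 11 of 16 ADAMTS enzymes, and in 0 of 5 ADAMTS-like genes and 0 of 3 TIMPs. Below are 13 examples, chosen among genes with high levels or a small p in the genotype test, 5′ to 3′ on the coding strand, with the 3 histidine codons in capitals. In Adam10 and in the ADAMTS enzymes the run is spliced across an intron, which the coordinates include.
Mmp14 (chr14:54437627-54437659, + strand): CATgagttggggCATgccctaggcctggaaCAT
Mmp15 (chr8:95368585-95368617, + strand): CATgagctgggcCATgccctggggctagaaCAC
Mmp19 (chr10:128795673-128795705, + strand): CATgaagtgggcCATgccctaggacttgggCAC
Mmp2 (chr8:92839279-92839311, + strand): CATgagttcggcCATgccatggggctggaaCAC
Mmp23 (chr4:155651528-155651560, - strand): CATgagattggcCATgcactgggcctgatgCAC
Adam8 (chr7:139987893-139987925, - strand): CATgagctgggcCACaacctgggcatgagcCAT
Adam9 (chr8:24990326-24990358, - strand): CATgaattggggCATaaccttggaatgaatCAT
Adam10 (chr9:70754296-70761585, + strand): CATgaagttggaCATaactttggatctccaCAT
Adam17 (chr12:21336732-21336764, - strand): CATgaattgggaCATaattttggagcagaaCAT
Adamts13 (chr2:26978681-26981084, + strand): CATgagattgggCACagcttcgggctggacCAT
Adamts1 (chr16:85799191-85799545, - strand): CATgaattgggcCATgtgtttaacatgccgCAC
Adamts8 (chr9:30952721-30953378, + strand): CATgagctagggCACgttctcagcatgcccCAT
Adamts15 (chr9:30911255-30911690, - strand): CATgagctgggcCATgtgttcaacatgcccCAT

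The histidine codons frame the same pattern in each run, with 3 codons between the first 2 histidines and 5 between the second and the last. Adamts1, Adamts4, Adamts8, Adamts9 and Adamts15, which encode proteases of proteoglycans, matched only when the glycine codon of the signature was left free. The 5 ADAM genes without a match were Adam2, Adam4, Adam11, Adam22 and Adam23. Adam11, Adam22 and Adam23 are known as adhesion proteins without protease activity.

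Levels were compared between genes per length, as reads per kilobase scaled to library size (RPKM), over all 6 libraries. Of the 56 genes, 19 had a mean of at least 1 RPKM. Adam9, a broadly expressed membrane sheddase, had the highest level with 23.7 ± 1.21 RPKM (SD, n = 6). Mmp19, a secreted enzyme that cuts basement membrane proteins, followed with 18.3 ± 1.51 RPKM (SD, n = 6), and Adam10, the sheddase that acts on Notch, with 10.4 ± 0.902 RPKM (SD, n = 6). The ranges of Adam9 and Mmp19 over the libraries met neither each other nor that of Adam10. The range of Adam10, 9.15 to 11.5 RPKM, overlapped those of Adam11 and Mmp15, and the next 3 genes overlapped each other, so the order from Adam10 on is not fixed by these libraries: Adam11 with 7.68 ± 3.76 RPKM (SD, n = 6), the membrane-type enzyme Mmp15 with 7.59 ± 1.63 RPKM (SD, n = 6) and the membrane-type enzyme Mmp14 with 7.0 ± 1.30 RPKM (SD, n = 6). Adam17, which releases tumour necrosis factor, had 4.75 ± 0.397 RPKM (SD, n = 6). The inhibitor genes Timp2 and Timp3 had 4.10 ± 0.503 and 3.14 ± 0.680 RPKM (SD, n = 6), and Adamts1, a protease of versican and aggrecan, lay between them with 4.0 ± 0.684 RPKM (SD, n = 6). Adamtsl2 and Mmp2 were the lowest of the genes named here that passed 1 RPKM, with 1.64 ± 0.391 and 1.09 ± 0.200 RPKM (SD, n = 6).

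**Figure D1:**
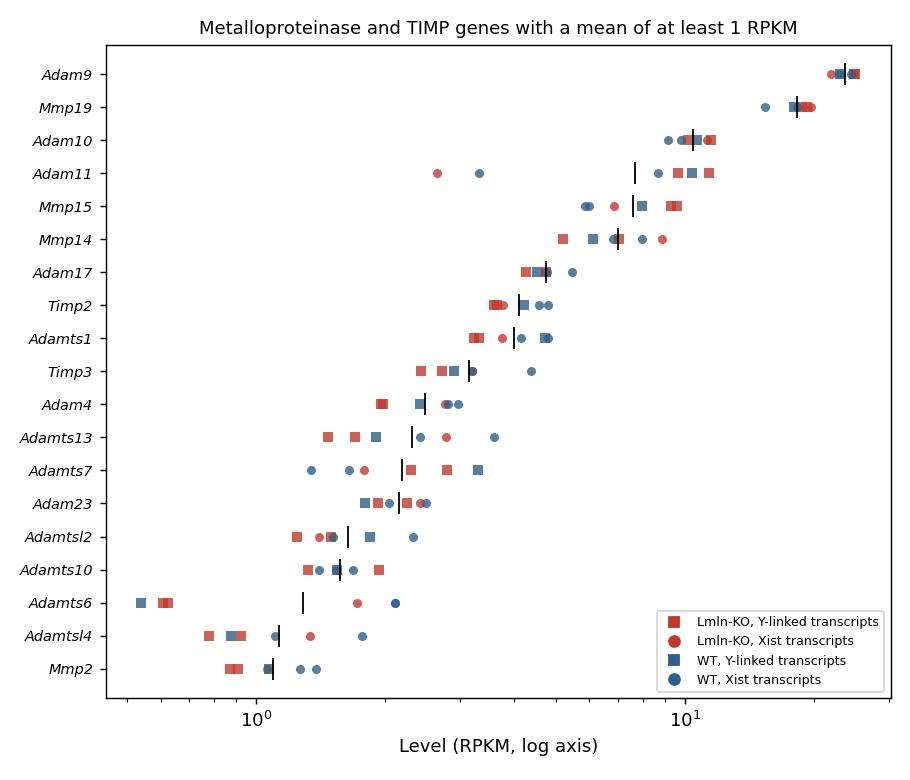
Level in RPKM on a log axis of the 19 genes with a mean of at least 1 RPKM. Each point is 1 library, colours give the genotype, shapes give the sex-chromosome transcripts, and the tick is the mean of the 6 libraries. Adam9, Mmp19 and Adam10 lead with narrow ranges, while the points of Adam11 and Adamts6 split into separate groups.

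Several of the 56 genes had few counts. The macrophage elastase Mmp12 had 4, 2 and 8 counts in the Lmln-KO libraries and 3, 10 and 24 in the WT libraries. The collagenase Mmp13 had 6, 2 and 2 counts in Lmln-KO and 0, 2 and 4 in WT. Timp1, the TIMP gene that injury is known to induce, had 6, 0 and 0 counts in Lmln-KO and 2, 1 and 4 in WT. The neutrophil collagenase Mmp8 (4 counts over all libraries) and Timp4 (5 counts) stayed under the minimum of 10. Low counts such as these cannot show a difference between genotypes at this depth.

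Of the 56 genes, 47 had enough counts for the genotype test, and 9 did not: Adam21, Adamts16, Adamts17, Mmp3, Mmp7, Mmp12, Mmp13, Mmp25 and Timp1. Their counts per library ran from 0 to 24. Mmp25, a glycolipid-anchored enzyme known from neutrophils, was the untested gene whose groups did not overlap, with 1, 1 and 0 counts in Lmln-KO and 3, 6 and 4 in WT.

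In the genotype comparison 0 of the 47 genes passed an adjusted p of 0.05 in edgeR, as did 0.0% of all 18703 genes tested. DESeq2 likewise called 0 of the 56 genes, against 0.0785% of the genes to which it gave an adjusted p. The lowest adjusted p among the 47 was 0.933 in edgeR, and the lowest in DESeq2 was 0.801. At an unadjusted p under 0.05 in edgeR there were 8 of the 47 genes, beside 4.66% of all tested genes. Of these, 7 had a lower level in Lmln-KO (14.9%, beside 3.14% of all genes) and 1 a higher level (2.13%, beside 1.52%). The 8 became 5 without Lmln-KO replicate 1 (beside 2.83% of all tested genes) and 2 without Lmln-KO replicate 2 (beside 2.93%). They became 9 without Lmln-KO replicate 3 (beside 7.21%) and 10 without WT replicate 1 (beside 8.97%). Without WT replicate 2 they became 5, and without WT replicate 3 they became 4. The share of all genes thus moved with the library left out. The 3 libraries of 1 genotype lay wholly outside those of the other for 11 genes (23.4%), beside 10.3% of all genes. Lmln-KO was the lower group in 9 of them (19.1%, beside 5.73%) and the higher group in 2 (4.26%, beside 4.61%).

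The median log2 fold change (Lmln-KO over WT) of the 47 genes was -0.18, beside -0.0038 over all tested genes, and 28 of the 47 had a negative value (59.6%, beside 50.6%). Single values ran from -1.82 in Adam8 to 0.84 in Adamts15. By subfamily the median was -0.16 over 12 MMPs, 0.07 over 14 ADAMs, -0.32 over 14 ADAMTS enzymes, -0.41 over 5 ADAMTS-like genes and -0.32 over the 2 tested TIMPs. Negative values were held by 7 of 12 MMPs, 5 of 14 ADAMs, 10 of 14 ADAMTS enzymes, 4 of 5 ADAMTS-like genes and 2 of 2 TIMPs. The median of the 47 was -0.03 without WT replicate 3, -0.31 without WT replicate 1 and -0.27 without Lmln-KO replicate 3, so each of these libraries moved it by more than 1.5 times. In whole liver, fewer cells of a type and less RNA per cell cannot be told apart.

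**Figure D2:**
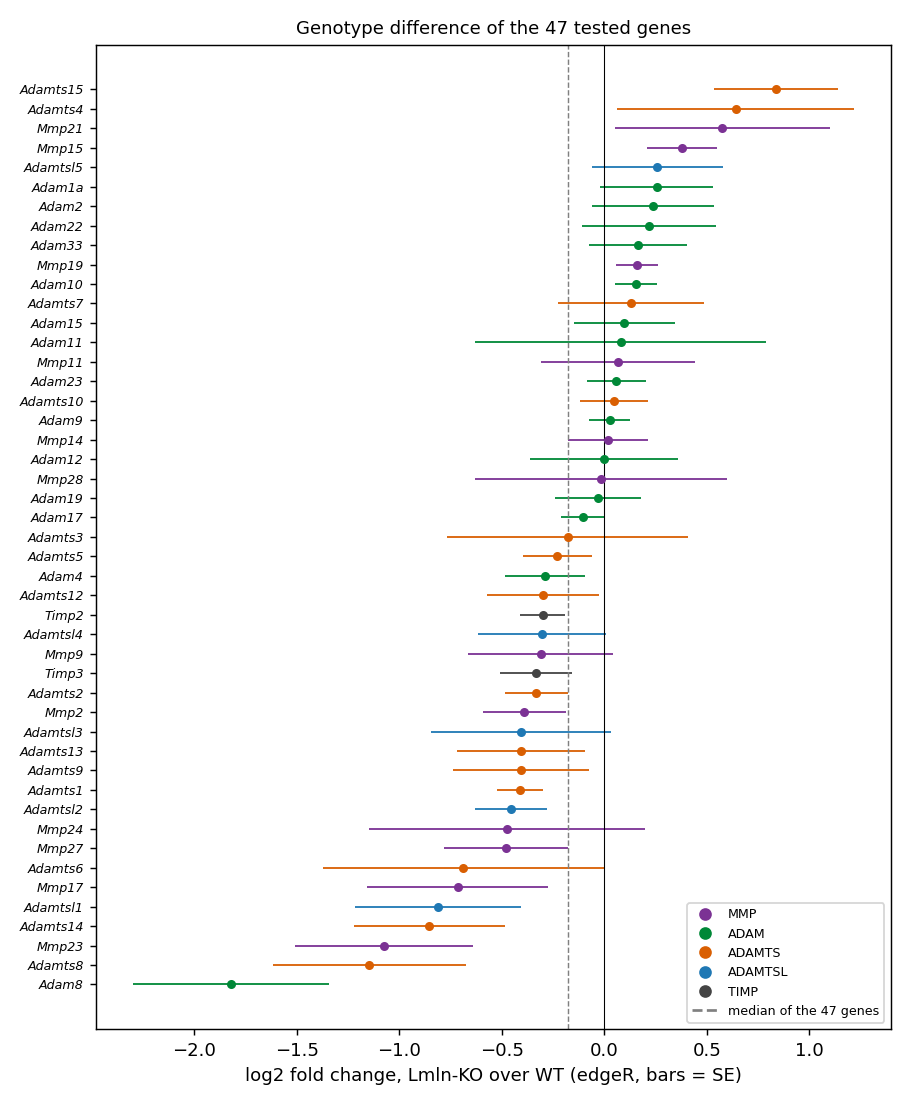
Log2 fold change of the 47 tested genes, Lmln-KO over WT, from edgeR. Points are fitted values, bars are their SE, colours are the subfamilies and the dashed line is the median of the 47 genes, -0.18. Most ADAMTS, ADAMTS-like and TIMP genes lie left of 0, and no gene passed the adjusted threshold.

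Among the inhibitors, Timp2 (chromosome 11, 118301069 to 118355740), which blocks MMPs and also helps Mmp14 to activate Mmp2, had levels of 14.0, 14.3 and 14.7 CPM in Lmln-KO and 16.4, 17.8 and 18.7 CPM in WT. All 3 Lmln-KO libraries lay below all WT libraries, at 14.3 ± 0.323 against 17.6 ± 1.11 CPM (SD, n = 3 each). The log2 fold change was -0.30 (SE 0.109), with an unadjusted p of 0.0244 in edgeR. Timp3 (chromosome 10, 86300372 to 86349506), a matrix-bound inhibitor of ADAM17 and of ADAMTS enzymes, had 19.7, 22.1 and 26.0 CPM in Lmln-KO and 23.6, 26.0 and 35.8 CPM in WT. The groups overlapped, at -0.33 on the log2 scale (SE 0.176). The exons of Timp3 share 1733 bases with Syn3 on the other strand, and the counting did not use strand, so their reads cannot be told apart there.

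Among the membrane-type MMPs, Mmp15 (chromosome 8, 95352268 to 95375080) had 51.9, 50.1 and 36.9 CPM in Lmln-KO and 43.0, 32.3 and 31.7 CPM in WT. The highest WT value lay above the lowest Lmln-KO value, with group means of 46.3 ± 8.18 and 35.6 ± 6.38 CPM (SD, n = 3 each). Its log2 fold change was 0.38 (SE 0.171), with an unadjusted p of 0.0582 in edgeR. Mmp14 (chromosome 14, 54431612 to 54445364), a collagenase that also activates Mmp2, had 42.0, 31.0 and 52.9 CPM in Lmln-KO and 36.5, 40.5 and 47.3 CPM in WT. The WT values all fell within the Lmln-KO range, and the log2 fold change was 0.02 (SE 0.196). Mmp17 and Mmp24 stayed below 1 CPM in every library, at -0.71 (SE 0.441) and -0.48 (SE 0.674) on the log2 scale.

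Of the gelatinases, Mmp2 (chromosome 8, 92827291 to 92853420), made by stellate cells and fibroblasts, had 2.93, 3.07 and 3.58 CPM in Lmln-KO and 3.62, 4.28 and 4.66 CPM in WT. The groups did not overlap, though the highest Lmln-KO value and the lowest WT value were close. This is a log2 fold change of -0.39 (SE 0.203), with an unadjusted p of 0.0902 in edgeR. Mmp9, known from neutrophils and macrophages, had 0.721, 0.945 and 1.32 CPM in Lmln-KO and 1.07, 1.55 and 1.09 CPM in WT, with groups that overlapped and a log2 fold change of -0.31 (SE 0.352).

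Mmp19 (chromosome 10, 128790910 to 128800824) was slightly higher in each Lmln-KO library, with 66.5, 68.1 and 69.5 CPM against 63.7, 64.7 and 54.5 CPM in WT. The log2 fold change was 0.16 (SE 0.102), and WT replicate 3 held the low value. Its exons share 789 bases with Gm47093 and Tmem198b on the other strand. Mmp23 (chromosome 4, 155650655 to 155653384), a membrane-bound MMP released by furin-type proteases, had 0.817, 0.331 and 1.02 CPM in Lmln-KO and 1.9, 1.23 and 1.497 CPM in WT. Its groups did not overlap, at 0.724 ± 0.356 and 1.54 ± 0.337 CPM (SD, n = 3 each), and the log2 fold change was -1.08 (SE 0.435), with an unadjusted p of 0.0382 in edgeR. Mmp27, named because its groups did not overlap, had 0.769, 0.850 and 0.810 CPM in Lmln-KO and 1.01, 1.23 and 1.15 CPM in WT.

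The low enzymes Mmp3, Mmp7, Mmp12 and Mmp13 lie together on chromosome 9 with Mmp27. Genes of this cluster are known targets of AP-1, a factor made of Fos and Jun proteins. The AP-1 motif TGANTCA was searched on both strands in RefSeq promoter windows (GRCm38.p6) from 250 bases before to 50 after each start, for 37 of the 56 genes. It was present in 5 of 42 windows of these genes (11.9%) and in 2565 of 32851 windows in all (7.81%). The 61 bases around each match are shown since 4 of the 5 genes belong to the cluster, with the motif in capitals.
Mmp3 (chr9:7445749-7445809, + strand): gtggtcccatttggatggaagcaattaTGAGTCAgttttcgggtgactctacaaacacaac
Mmp7 (chr9:7692000-7692060, + strand): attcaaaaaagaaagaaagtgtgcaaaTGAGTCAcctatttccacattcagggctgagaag
Mmp12 (chr9:7347303-7347363, + strand): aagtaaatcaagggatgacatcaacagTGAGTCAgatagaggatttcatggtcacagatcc
Mmp13 (chr9:7272452-7272512, + strand): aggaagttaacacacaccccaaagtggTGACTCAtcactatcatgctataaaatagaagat
Adam19 (chr11:46055826-46055886, + strand): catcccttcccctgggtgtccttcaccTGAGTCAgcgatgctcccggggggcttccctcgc

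In the 4 cluster genes the motif began 35 to 63 bases before the start, and in Adam19 it began 131 bases before. The window of Mmp27, of the same cluster, had 0 matches, as did the further windows of Mmp7, Mmp12 and Adam19. A match describes the letters only. The GC box GGGCGG, searched the same way, was in 25 of the 42 windows (59.5%) and in 35.7% of all windows. It was in the windows of Timp2, Timp3, Mmp14, Mmp15, Adam8, Adam10, Adam17 and Adamts1. The 4 cluster genes with the AP-1 motif held at most 24 counts in any library, whereas Adam19, a sheddase of neuregulins, had between 2.97 and 4.03 CPM and a log2 fold change of -0.03 (SE 0.209).

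Among the sheddases, Adam8 (chromosome 7, 139978932 to 139992562), an ADAM known from leukocytes, had the largest difference of the 47 genes. It held 5, 7 and 12 counts in Lmln-KO and 13, 23 and 33 in WT, which correspond to 0.240, 0.331 and 0.512 CPM and to 0.772, 1.23 and 1.9 CPM. All Lmln-KO libraries were below all WT libraries, at 0.361 ± 0.138 and 1.30 ± 0.567 CPM (SD, n = 3 each). This is a log2 fold change of -1.82 (SE 0.480), with an unadjusted p of 0.00518 and an adjusted p of 0.933 in edgeR. Markers of monocyte-derived macrophages summed to between 49.0 and 69.1 CPM in Lmln-KO and between 59.8 and 79.7 CPM in WT, with 6 of 9 tested markers lower in Lmln-KO by fitted value. Neutrophil markers, 2 of 11 with enough counts to test, summed to between 2.41 and 6.58 CPM in Lmln-KO and between 5.40 and 6.35 CPM in WT. B and plasma cell markers summed to between 23.7 and 40.9 CPM in Lmln-KO and to 42.0, 239 and 416 CPM in WT, so the WT libraries followed the same order for these markers as for Adam8. The Lmln-KO libraries did not, with 40.9, 23.7 and 34.1 CPM in replicates 1 to 3. T and NK cell markers, 2 of 12 with enough counts to test, summed to between 3.03 and 4.72 CPM in Lmln-KO and between 5.11 and 10.02 CPM in WT. Of the 2 tested T and NK cell markers, 1 had a negative fitted value. All genes of these 4 lists had counts, and their part in the Adam8 difference was not tested.

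The 3 sheddases with high levels differed little. Adam9 (chromosome 8, 24949611 to 25016927) lay between 90.6 and 103 CPM in Lmln-KO and had 94.8, 94.3 and 101 CPM in WT, with a log2 fold change of 0.03 (SE 0.10). Adam10 (chromosome 9, 70678997 to 70780229) had 56.7, 50.0 and 55.5 CPM in Lmln-KO and 52.4, 48.3 and 45.0 CPM in WT, with a log2 fold change of 0.15 (SE 0.103). Adam17 (chromosome 12, 21323509 to 21373632) had 34.1, 30.5 and 33.8 CPM in Lmln-KO and 32.4, 34.2 and 39.0 CPM in WT, with a log2 fold change of -0.10 (SE 0.108). Values of the genotypes overlapped for each of them, and their SEs were among the smallest of the 47 genes. The other tested ADAMs with the zinc signature (Adam1a, Adam12, Adam15, Adam19 and Adam33) had log2 fold changes between -0.03 and 0.26 and groups that overlapped.

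Of the ADAMs without the signature, Adam11 (chromosome 11, 102761439 to 102780262) had the widest spread among genes above 1 RPKM. It had 54.6, 64.7 and 15.0 CPM in Lmln-KO and 59.1, 18.8 and 49.1 CPM in WT, so each genotype held high and low libraries. The log2 fold change was 0.08 (SE 0.711). Adam23, a partner of the LGI proteins in brain, was steadier, with 32.2 to 44.6 CPM over the 6 libraries. Adam2, Adam4 and Adam22 also had groups that overlapped, with log2 fold changes of 0.24, -0.29 and 0.22.

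Adamts1 (chromosome 16, 85793827 to 85803113) had the second smallest p of the family. Its levels were 17.1, 17.6 and 19.9 CPM in Lmln-KO and 25.1, 21.98 and 25.45 CPM in WT. Every Lmln-KO library lay below every WT library, at 18.2 ± 1.48 and 24.2 ± 1.91 CPM (SD, n = 3 each). This is a log2 fold change of -0.41 (SE 0.114), with an unadjusted p of 0.00686 in edgeR. Adamts1 lies on the same chromosome as Lmln, but far from it: Lmln ends at 33127695 and Adamts1 starts at 85793827. Adamts5, described below, starts at 85856173 on that chromosome. A part of position in these differences was not tested.

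Adamts15 (chromosome 9, 30899155 to 30922452), also a protease of proteoglycans, was the 1 gene with an unadjusted p under 0.05 and a higher level in Lmln-KO. It had 2.21, 3.17 and 3.20 CPM in Lmln-KO and 1.07, 1.87 and 1.84 CPM in WT, with no overlap and means of 2.86 ± 0.561 and 1.59 ± 0.456 CPM (SD, n = 3 each). The log2 fold change was 0.84 (SE 0.301), with an unadjusted p of 0.0239 in edgeR. Adamts8 (chromosome 9, 30942562 to 30963838), its neighbour on the chromosome, had values in the other direction: 0.721, 0.331 and 0.469 CPM in Lmln-KO and 1.19, 1.55 and 0.633 CPM in WT. These groups overlapped through WT replicate 3, and the log2 fold change was -1.15 (SE 0.471), with an unadjusted p of 0.0407 in edgeR. The exons of Adamts8 share 489 bases with Gm29724 on the other strand. The aggrecanase Adamts5 had 5.86, 4.77 and 5.84 CPM in Lmln-KO and 7.01, 6.31 and 5.99 CPM in WT, and is named because its groups did not overlap.

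Adamts2, Adamts3 and Adamts14 are procollagen N-proteinases, which trim fibrillar procollagens before assembly. Adamts2 (chromosome 11, 50602084 to 50807573) had 6.97, 5.62 and 6.86 CPM in Lmln-KO and 8.43, 8.35 and 7.72 CPM in WT, without overlap. Its log2 fold change was -0.33 (SE 0.154), with an unadjusted p of 0.0635 in edgeR. Adamts14 (chromosome 10, 61197112 to 61273438) had 1.44, 1.04 and 2.39 CPM in Lmln-KO and 2.02, 3.58 and 3.23 CPM in WT. These groups overlapped, and the log2 fold change was -0.85 (SE 0.367), with an unadjusted p of 0.0484 in edgeR. Adamts3 stayed below 1 CPM, with a log2 fold change of -0.18 (SE 0.590) that became 0.33 with a term for the sex-chromosome transcripts.

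Adamts13 (chromosome 2, 26973416 to 27009628), the protease of von Willebrand factor, is known to be made by hepatic stellate cells. It had 7.25, 8.41 and 13.7 CPM in Lmln-KO and 9.38, 11.9 and 17.7 CPM in WT, with groups that overlapped and a log2 fold change of -0.41 (SE 0.311). Stellate cell markers summed to 480, 527 and 720 CPM in Lmln-KO and to 576, 717 and 841 CPM in WT, the same order of libraries within each genotype. Both this sum and Adamts13 were higher in every library with Xist than in every library with Y-linked transcripts. The shared order was not tested apart from that split. Of the 14 stellate markers, 14 were tested and 12 had a negative fitted value. Myofibroblast and portal fibroblast markers, 13 of 13 tested and 11 negative, summed to between 105 and 149 CPM in Lmln-KO and between 122 and 186 CPM in WT. Sinusoidal endothelial markers summed to between 678 and 865 CPM in Lmln-KO and between 767 and 804.5 CPM in WT. All 12 were tested and 9 were negative. Markers of Kupffer cells, which are liver macrophages, summed to between 210 and 573 CPM in Lmln-KO and between 218 and 480 CPM in WT. All 9 were tested and 6 were negative. None of the genes in these lists was without counts, and their part in the differences of the ADAMTS, ADAMTS-like and TIMP genes was not tested.

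Among the ADAMTS-like genes, Adamtsl2 (chromosome 2, 27079379 to 27108981), which binds fibrillin and a carrier of latent TGF-beta, had 11.96, 9.97 and 11.2 CPM in Lmln-KO and 14.8, 12.1 and 18.6 CPM in WT. The groups were separate by a narrow margin, with means of 11.1 ± 1.01 and 15.2 ± 3.27 CPM (SD, n = 3 each). This is a log2 fold change of -0.46 (SE 0.175), with an unadjusted p of 0.0316 in edgeR. Adamtsl1 had 1.44, 2.13 and 3.92 CPM in Lmln-KO and 2.79, 4.87 and 5.53 CPM in WT, which overlapped, and a log2 fold change of -0.81 (SE 0.406). Adamtsl4 and Adamtsl5 stood at -0.30 (SE 0.312) and 0.26 (SE 0.319) on the log2 scale, also with overlap.

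**Figure D3:**
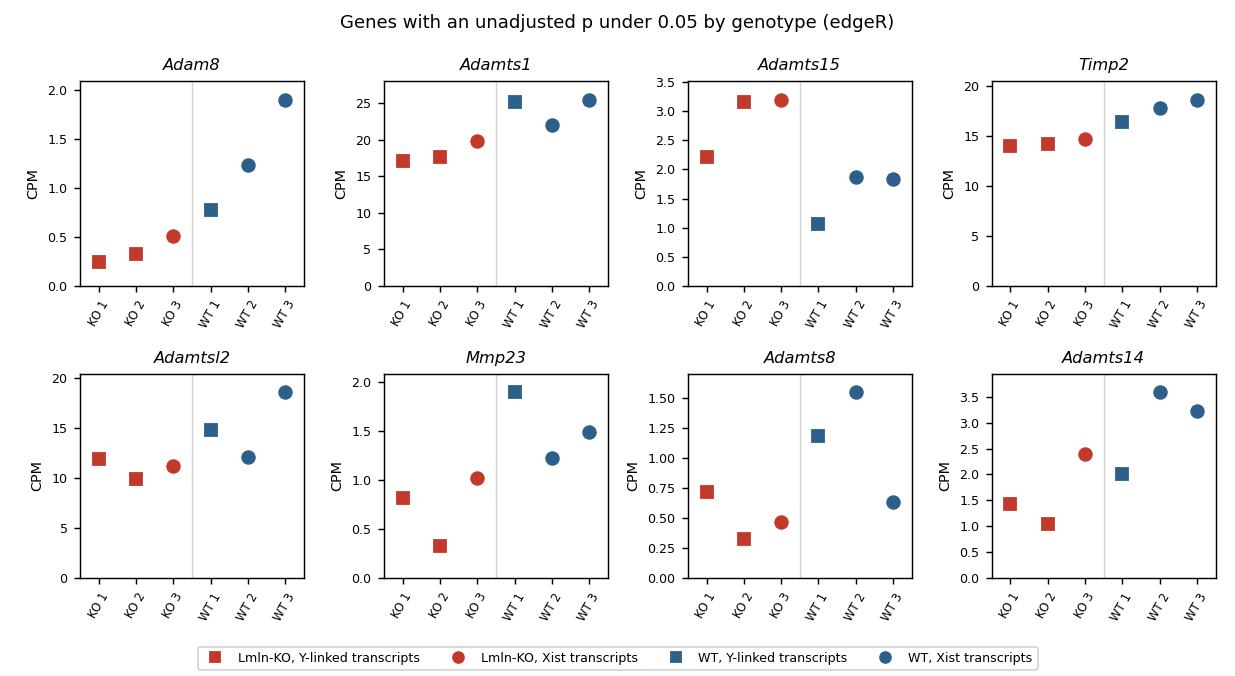
Level in CPM by library of the 8 genes with an unadjusted p under 0.05 in edgeR. Red is Lmln-KO, blue is WT, squares are libraries with Y-linked transcripts and circles those with Xist, and each axis starts at 0. Adamts15 is the 1 gene with higher Lmln-KO values, and Adamts8 and Adamts14 are those in which the groups overlap.

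The sex-chromosome transcripts divided the libraries into 2 sets that each held both genotypes: Lmln-KO replicates 1 and 2 with WT replicate 1, and Lmln-KO replicate 3 with WT replicates 2 and 3. Age cannot be told apart from these in Lmln-KO, since the 39-week animal is its 1 library with Xist. Over the 47 genes, 12 had all 3 Xist libraries above all 3 others (25.5%, beside 13.0% of all tested genes), and 3 had them all below (6.38%, beside 13.3%). The 3 lower ones were Adam11, Mmp15 and Adamts7.

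The widest of these splits was in Adamts6, named for this split. It had 4.85, 4.72 and 4.22 CPM in the first set (Lmln-KO, Lmln-KO and WT), against 13.4, 16.4 and 16.5 CPM in the second (Lmln-KO, WT and WT). Adam11 ran the other way, with 54.6, 64.7 and 59.1 CPM in the first set and 15.0, 18.8 and 49.1 CPM in the second. Adamts7, a protease of cartilage oligomeric matrix protein, had 17.6, 14.4 and 20.7 CPM in the first set and 11.2, 10.4 and 8.46 CPM in the second. Mmp15, Timp3, Adamts13, Adamts14 and Adamtsl1 were also among the 15 genes whose sets did not overlap.

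**Figure D4:**
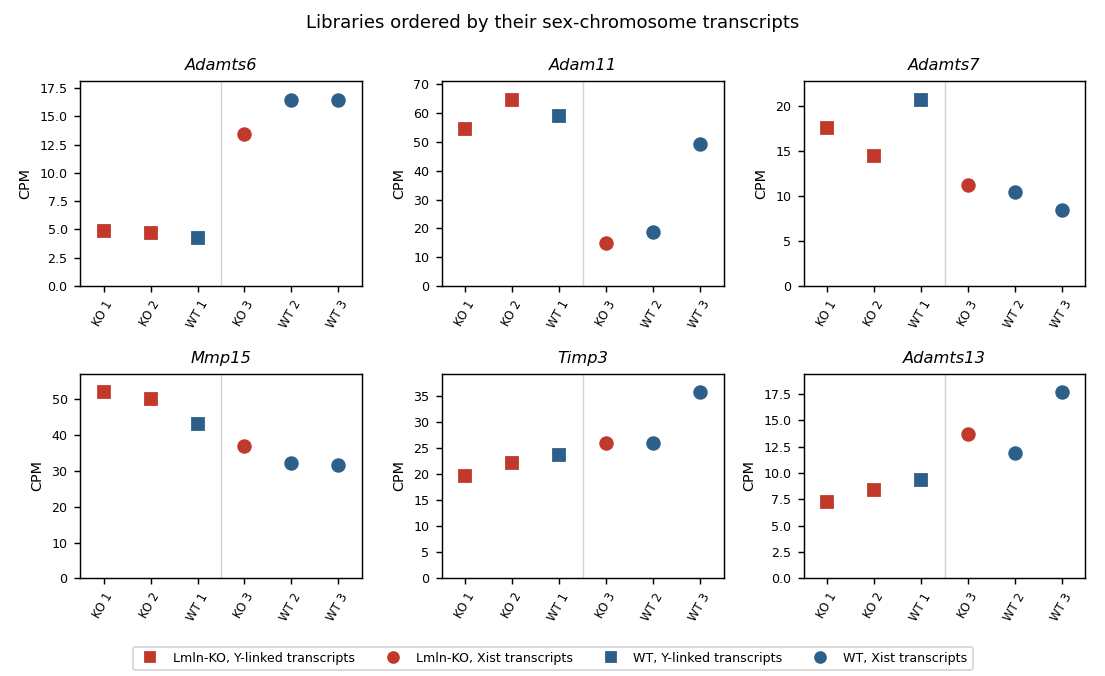
Level in CPM of 6 genes whose values separate by sex-chromosome transcripts, with the libraries that hold Y-linked transcripts at left and those with Xist at right. Each point is 1 library, red for Lmln-KO and blue for WT, and each axis starts at 0. Adamts6, Timp3 and Adamts13 are higher in the Xist libraries and Adam11, Adamts7 and Mmp15 are lower.

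A fit with a term for these sets called 0 of the 47 genes in edgeR, as against 0.00535% of all tested genes, and 8 of the 47 had an unadjusted p under 0.05, beside 4.34% of all tested genes. The median log2 fold change of the 47 was then -0.07, with -0.04 over the MMPs, 0.12 over the ADAMs, -0.13 over the ADAMTS enzymes, -0.24 over the ADAMTS-like genes and -0.24 over the TIMPs. DESeq2 with the term called 0 of the 43 genes to which it gave an adjusted p, beside 0.154% of all such genes. Adam8 had a log2 fold change of -1.52 with the term, Adamts1 -0.39, Timp2 -0.27, Adamtsl2 -0.44 and Adamts15 1.02. Mmp15, at 0.23 with the term and 0.38 without it, had an unadjusted p of 0.0322 in edgeR with the term. Adamts6 was at -0.09 with the term and -0.69 without it, and Adam11 at -0.56 and 0.08, so its sign turned.

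Within the sets the difference of mean log2 CPM between Lmln-KO and WT was negative in both for 19 of the 47 genes (40.4%, beside 27.3% of all tested genes) and positive in both for 9 (19.1%, beside 27.3%). Adam8 was at -1.19 in the set with Y-linked transcripts and -1.41 in the set with Xist. Adamts1 was at -0.53 and -0.25, Timp2 at -0.22 and -0.31, and Adamtsl2 at -0.43 and -0.42. Adamts15 was at 1.23 and 0.75. The groups of these named genes did not overlap, so the same direction in both sets was fixed in advance.

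Of the other genes with an unadjusted p under 0.05, Mmp23 was at -1.67 in the set with Y-linked transcripts and -0.38 in the set with Xist. Adamts8 was at -1.11 and -0.95, and Adamts14 at -0.68 and -0.49. These genes had the same direction in both sets, and the Mmp23 difference was the most uneven. Among the genes described with them, Mmp15 was at 0.25 and 0.21, Timp3 at -0.18 and -0.23, Mmp2 at -0.26 and -0.31, Adamts2 at -0.42 and -0.22, and Adamts13 at -0.26 and -0.08. For Mmp23, Mmp2 and Adamts2 the groups did not overlap, which fixed the direction in advance. Adamts8 and Adamts14 overlapped but were picked by their p in the same libraries, so their direction is no separate support. The set with Y-linked transcripts has 1 WT library and the set with Xist has 1 Lmln-KO library, so neither has a spread in both genotypes. Adamts4 was at 1.35 and -0.74, the widest disagreement between the sets in an ADAMTS gene, at levels below 1.5 CPM.

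**Figure D5:**
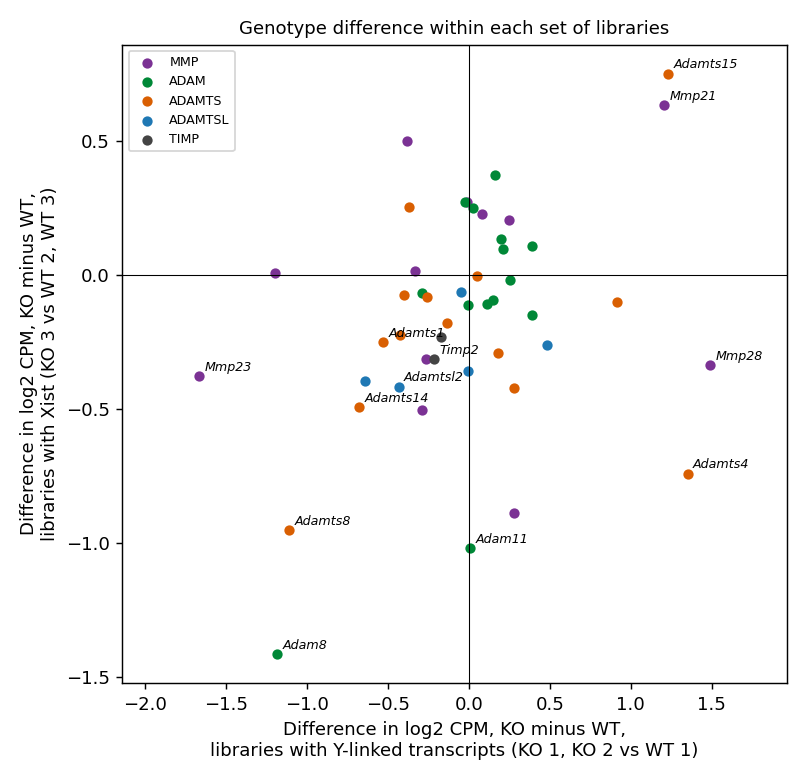
Difference in mean log2 CPM, Lmln-KO minus WT, within the libraries with Y-linked transcripts (horizontal axis) and within those with Xist (vertical axis) for the 47 tested genes, coloured by subfamily. Of the points, 19 lie in the lower left, where both differences are negative, among them Adam8, Adamts8 and Adamts1, and 9 lie in the upper right with Adamts15.

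The genes that act with these proteases were read from the same fit, and 0 of each list passed the adjusted threshold in edgeR. The lists were chosen with earlier results of these data known, so shares of all genes given beside them are a description and no test. Of 19 listed substrates of ADAMTS enzymes, 13 were tested and 13 had a negative fold change, with a median of -0.40 and 3 lower at an unadjusted p under 0.05 in edgeR. Over all tested genes 50.6% were negative and 3.14% were lower at that p. With the sex-chromosome term the median of these substrates was -0.26, and 7 of 13 were negative in both sets, beside 27.3% of all genes. They include the fibrillar collagen gene Col3a1, at 29.4 ± 1.53 CPM in Lmln-KO against 38.6 ± 3.78 CPM in WT (SD, n = 3 each), with a log2 fold change of -0.39. The fibrillin gene Fbn1 and the collagen gene Col1a2 had log2 fold changes of -0.50 and -0.46, and all 3 had groups that did not overlap. Col1a2 and Col3a1 are also on the myofibroblast list above.

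Of 16 listed regulators of MMP genes, AP-1 subunits, ETS factors and cytokines, 13 were tested and 13 had a negative fold change. Their median was -0.41, with 5 genes lower at an unadjusted p under 0.05 in edgeR, beside 50.6% of all tested genes negative and 3.14% lower at that p. Since this list was also chosen with earlier results known, these shares describe the listed genes and are no test. With the sex-chromosome term the median of these regulators was -0.40, and 11 of 13 were negative in both sets. Il1b, the gene of a cytokine that induces MMPs, had 3.71 ± 1.37 CPM in Lmln-KO against 10.1 ± 1.57 CPM in WT (SD, n = 3 each), a log2 fold change of -1.44. It was the 1 listed gene besides Lmln to pass in DESeq2 by genotype, with an adjusted p of 0.0117, while edgeR gave an adjusted p of 0.933. Egr1, an immediate early transcription factor, had a mean of 7.66 CPM in Lmln-KO against 18.7 CPM in WT. Its log2 fold change was -1.28 (SE 0.351), and its groups did not overlap. In DESeq2, Egr1 had an adjusted p of 0.128 by genotype and of 0.0370 with the sex-chromosome term, where Il1b had an adjusted p of 0.0261. The AP-1 subunit Fosl2 and the ETS factor Ets2 had log2 fold changes of -0.41 and -0.47.

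Of the other lists, 4 had medians closer to that of all genes. Substrates that ADAMs shed from the cell surface, 26 of 29 tested, had a median of -0.13 with 16 negative and 10 positive values. The adhesion receptor Cd44 had 12.7 ± 1.49 CPM in Lmln-KO against 19.3 ± 3.54 CPM in WT (SD, n = 3 each), a log2 fold change of -0.60, and the tumour necrosis factor receptor Tnfrsf1b had a log2 fold change of -0.53. Inhibitors outside the TIMPs, 11 of 14 tested, had a median of -0.05. Activating proteases and their receptors, 11 of 15 tested, had a median of 0.02 and no gene with an unadjusted p under 0.05 in edgeR. Tetraspanins and iRhoms that guide ADAM10 and ADAM17, 8 of 9 tested, had a median of 0.10, with Tspan15 at -0.83. Of 9 other metzincins 3 were tested: Lmln, Pappa at -1.08 and Bmp1 at 0.05.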

How the data were processed

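Whole-liver RNA was depleted of ribosomal RNA and sequenced in pairs of 36-base reads from a directional kit, per the labels' protocols. Values are deposited as counts of reads per gene name, whole numbers with a gene length, which the authors made with featureCounts 2.0.1 on the Ensembl release 102 annotation, per the file headers. Per the submitters' processing notes the tools were edgeR 3.36.0, featureCounts and Subread 2.0.2, on GRCm38. For the aligner, a name was not given in the sources used here. Since the header command shows no paired-end or strand option, reads of a pair were counted singly, counts exceed fragments, and overlapping genes on opposite strands cannot be told apart. Exons of 16 of the 56 genes overlap another gene. The table held 0 columns of other samples.

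Genotype was tested over all 18703 genes with enough counts in edgeR 4.0.16 (R 4.3.3): TMM scaling, filterByExpr at a minimum count of 10, a robust quasi-likelihood fit and Benjamini-Hochberg adjustment at 0.05. CPM and RPKM were computed from the counts with TMM library sizes, RPKM with the deposited gene length, and log2 CPM with a prior count of 2. SE is the log2 fold change over the root of F. Groups do not overlap where every CPM of one genotype lies above all of the other. DESeq2 1.42.0, limma-voom (limma 3.58.1), other scalings and filters, the replicate number as a block, a term for sex-chromosome transcripts and leaving out each library were alternatives. Library pairs differed by at least 12.3 in chi-square per degree of freedom, and each library counted as 1 replicate. The lowest values were between genotypes within a set by sex-chromosome transcripts: 12.3 (Lmln-KO replicate 3, WT replicate 2) and 19 (Lmln-KO replicate 2, WT replicate 1). Pairs within a genotype ran from 34.9 to 94.4. These values do not show that the libraries came from separate animals.

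The genes and lists were chosen with earlier results of these data known. The rule for named genes took Lmln, the 12 family genes with the smallest p, the 4 with the highest RPKM in each subfamily, a set of 17 by name, and up to 4 of each further list. Genes named for a pattern of their values (Adam2, Adam4, Adam19, Adam22, Adam23, Adamts3, Adamts4, Adamts5, Adamts6, Mmp17, Mmp24, Mmp27) were added after the values were seen. The steps were tested on simulated counts.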

Additional observations from a re-analysis of the deposited data

How the results depend on the processing

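No gene of the family passed the adjusted threshold under any of the 16 alternatives, and the lowest adjusted p of a family gene was 0.496, without WT replicate 1. The number of all genes called was 0 in edgeR and became 22 with DESeq2, all lower in Lmln-KO, 3 without the low-count filter, 1 with the sex-marker term, 27 with the sex-marker term in DESeq2 (4 higher and 23 lower), and 0 to 3 when 1 library was left out, 3 without WT replicate 1. The family's median log2 fold change lay between -0.31 (without WT replicate 1) and -0.0308 (without WT replicate 3) when 1 library was left out, and between -0.06 and -0.21 under the other alternatives; the cause was not tested. Family genes with an unadjusted p under 0.05 numbered 2 (without Lmln-KO replicate 2) to 11 (with the replicate block). The share of all tested genes was 2.93% in the first of these fits and 6.46% in the last. Adamts1 stayed under 0.05 in 16 of 16 alternatives and Adam8 in 15 of 15, Adamts15 in 13 of 16, Adamtsl2 in 11 of 16, Mmp23 in 10 of 15, Timp2 in 9 of 16, Adamts14 in 8 of 16 and Adamts8 in 7 of 15. Among the genes named by the rule, the only ones followed through every alternative, the sign of Adam11 turned in 7, of Adamts7 and Mmp14 in 5 each, of Adamts10 in 2, and of Adam9 and Adamtsl4 in 1 each. With the sex-marker term the signs of Adam12, Adam19, Adamts3 and Mmp28 turned as well. The MMP median turned to 0.09 with a minimum count of 30, the ADAM median to -0.01 without WT replicate 1 and the ADAMTS-like median to 0.03 without WT replicate 3.

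Deviations of same-numbered libraries correlated at 0.465, -0.311 and 0.405. The positive values came from pairs within 1 set by sex-chromosome transcripts. Differently numbered pairs within a set were as high, at 0.473 (Lmln-KO replicate 2 with WT replicate 1) and 0.49 (Lmln-KO replicate 3 with WT replicate 2). These correlations follow the sets, so they cannot show whether the numbers are paired. With the replicate number as a block, 1 gene was called, 0 of the family, and the family's median was -0.10. In that fit 11 family genes had an unadjusted p under 0.05 in edgeR, beside 6.46% of all tested genes. Depth limits the 9 untested genes and those below 1 CPM.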
